A study of Mus musculus with 92 samples.

Results

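The proteasome genes were taken as all genes whose annotated symbol is Psm, a letter from a to g and a number. The rule found 45 genes, read by 62 probes, among 15967 named genes and 24613 probes on 92 bead arrays. The probe with the highest mean level among those detected stood for each gene. By role they were 7 alpha ring and 7 beta ring subunits of the core, 4 genes of the immunoproteasome and thymoproteasome (Psmb8, Psmb9, Psmb10 and Psmb11), 6 ATPases and 10 other subunits of the cap, 4 activators (Psme1 to Psme4), 1 inhibitor (Psmf1) and 6 assembly factors. A gene was tested in a tissue where its probe was detected, at a detection p under 0.05, on at least 7 arrays. That left 39 members in spinal cord, 42 in muscle and 34 in blood, and 44 over all arrays. Psma5, Psma6 and Psmg4 passed in none of the tissues taken alone, and Psmb11 passed only in muscle. Psmc6 and Psmd11 failed in spinal cord and blood, and Psmc2, Psmd2, Psmd6, Psmd9 and Psmd12 failed in blood.

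The proteasome degrades proteins marked with ubiquitin. Its core is a barrel of stacked rings, the outer ones of alpha subunits and the inner ones of beta subunits, of which Psmb5, Psmb6 and Psmb7 carry the proteolytic sites. The cap binds ubiquitinated proteins, removes the ubiquitin and uses ATPases to unfold and feed them into the core. In immune cells and under interferon, Psmb8, Psmb9 and Psmb10 replace Psmb5, Psmb6 and Psmb7 respectively, and this immunoproteasome produces peptides for class I antigen presentation. Deposits of misfolded SOD1 and ubiquitin are a known feature of motor neurons in mutant SOD1 mice, and ubiquitin ligation and proteasome genes are known to rise in wasting muscle.

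The arrays measured lumbar spinal cord, left tibialis anterior muscle (a shin muscle that loses its innervation in this model) and whole blood depleted of globin transcripts. Mice carried the G93A-SOD1 transgene, a mutant human superoxide dismutase driven by its own promoter and so present in all tissues, or were wild type littermates without it. All bear the strain name B6.Cg-Tg(G93A-SOD1)1Gur/J and were 70 or 100 days old. Each of the 12 groups of tissue, genotype and age had 8 arrays, except wild type at 100 days in every tissue and G93A-SOD1 muscle at 100 days, which had 7. The labels do not say whether replicates were separate mice, so p-values measure the spread between these samples.

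Detected probes ran from 5212 to 13428 per array in spinal cord, from 8512 to 11577 in muscle and from 6809 to 9691 in blood, and the number of arrays limits the precision. Gfap was detected on 31 of 31 spinal cord arrays, while the neuronal genes Nefl and Snap25 were detected on only 5 of them. Of 10 listed neuron markers, 9 were on the arrays and 7 passed the detection filter in spinal cord. Several arrays stood apart, 6 in all. In spinal cord, G93A-SOD1 replicate 1 at 70 days and wild type replicate 5 at 100 days had the fewest detected probes. Wild type replicates 3 and 5 at 70 days and G93A-SOD1 replicate 8 at 100 days held transcripts of fast muscle fibres. In blood, wild type replicate 6 at 70 days had the highest background. Counts of called members in spinal cord and blood genotype comparisons were 0 with and without these arrays.

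The largest differences among proteasome genes lay between tissues rather than genotypes. In wild type blood the 3 immunoproteasome subunits were higher than in muscle and spinal cord, and the core subunits they replace were lower. Levels below are log2 values of signal after background correction, quantile normalization over all 92 arrays and addition of an offset of 16, so that an undetected probe reads near 5 and differences of dim probes are understated. Levels of different genes come from different probes and are not compared. The tissues were compared in limma as the mean of both wild type ages, 15 arrays each, with p-values adjusted by Benjamini and Hochberg over 12530 genes. The fit took arrays of different tissues as independent, although the labels do not say whether they came from the same mice.

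Psmb8, which takes the place of Psmb5, is shown first. In wild type blood its lowest, median and highest levels were 8.07, 8.67 and 9.43 at 70 days and 8.27, 8.70 and 9.19 at 100 days. In wild type muscle the levels were 5.02, 5.35 and 5.71 at 70 days and 5.11, 5.50 and 5.81 at 100 days, with detection on 7 of 15 arrays. In wild type spinal cord they were 4.86, 4.95 and 5.03, then 4.80, 4.95 and 5.15, with detection on 5 of 15 arrays. All blood arrays lay above all arrays of the other tissues, and the G93A-SOD1 blood arrays (8.51 to 9.24) did as well. The difference was 9.89-fold between blood and muscle (log2 3.31, SE 0.10, adjusted p = 2.38e-49) and 13.2-fold between blood and spinal cord (log2 3.73, SE 0.10, adjusted p = 1.68e-53). Both folds are set against a level near background.

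Psmb9, which replaces Psmb6, followed the same order. Its levels in wild type blood were 9.90, 10.28 and 10.77 at 70 days and 9.91, 10.50 and 10.85 at 100 days. Those in muscle were 6.03, 6.81 and 7.18, then 6.36, 6.82 and 7.01. In spinal cord they were 5.13, 5.34 and 5.48, then 4.68, 5.72 and 5.88. Blood again overlapped neither tissue. Blood exceeded muscle 12.3-fold and spinal cord 29.8-fold (adjusted p = 7.61e-46 and 3.89e-56), and muscle exceeded spinal cord 2.43-fold (adjusted p = 1.04e-16).

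Psmb10, the partner of Psmb7, varied less between tissues. It ran from 9.81 to 10.93 in wild type blood, from 8.67 to 9.08 in muscle and from 9.26 to 10.06 in spinal cord. Blood lay wholly above muscle and touched the range of spinal cord. It was 2.82-fold higher in blood than in muscle (adjusted p = 4.4e-28) and 1.85-fold higher than in spinal cord (adjusted p = 1.47e-15), although under median centring the second difference turned to a log2 difference of -0.23, where the median of all genes moved from -0.01 to -0.59. Muscle was 1.52-fold below spinal cord (adjusted p = 2.8e-09).

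The proteolytic subunits of the standard core ran the other way. Psmb5, the chymotrypsin-like subunit, ranged from 8.87 to 9.83 in wild type blood, from 10.64 to 11.21 in muscle and from 9.54 to 10.65 in spinal cord. Psmb6, the caspase-like subunit, ranged from 10.48 to 11.38 in blood, from 12.17 to 12.58 in muscle and from 11.69 to 12.52 in spinal cord. Psmb7, the trypsin-like subunit, ranged from 9.34 to 10.03 in blood, from 12.004 to 12.52 in muscle and from 11.18 to 11.86 in spinal cord. Blood was below muscle on every wild type array for all 3 genes, by 2.99-fold for Psmb5, 2.65-fold for Psmb6 and 6.11-fold for Psmb7, with the largest adjusted p at 5.77e-26. Against spinal cord the differences were 1.66-fold, 1.92-fold and 3.58-fold lower, with the largest adjusted p at 4.49e-10, and only Psmb5 overlapped.

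Within 1 array the difference between replacing and replaced subunit was set to a mean of 0 in wild type muscle, so that it measures a shift and not a ratio of transcripts. Means and SD of blood are over 7 arrays for wild type at 100 days and over 8 for every other group. Psmb8 minus Psmb5 was 4.86 ± 0.27 in younger and 4.93 ± 0.24 in older wild type blood, and 4.96 ± 0.26 and 5.03 ± 0.22 in G93A-SOD1 blood. Psmb9 minus Psmb6 in wild type blood was 4.93 ± 0.14 at the younger age and 5.11 ± 0.16 at the older, and Psmb10 minus Psmb7 was 4.12 ± 0.26 and 4.07 ± 0.31. The genotypes of blood lay within about 1 SD of each other for Psmb8 minus Psmb5.

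**Figure D1:**
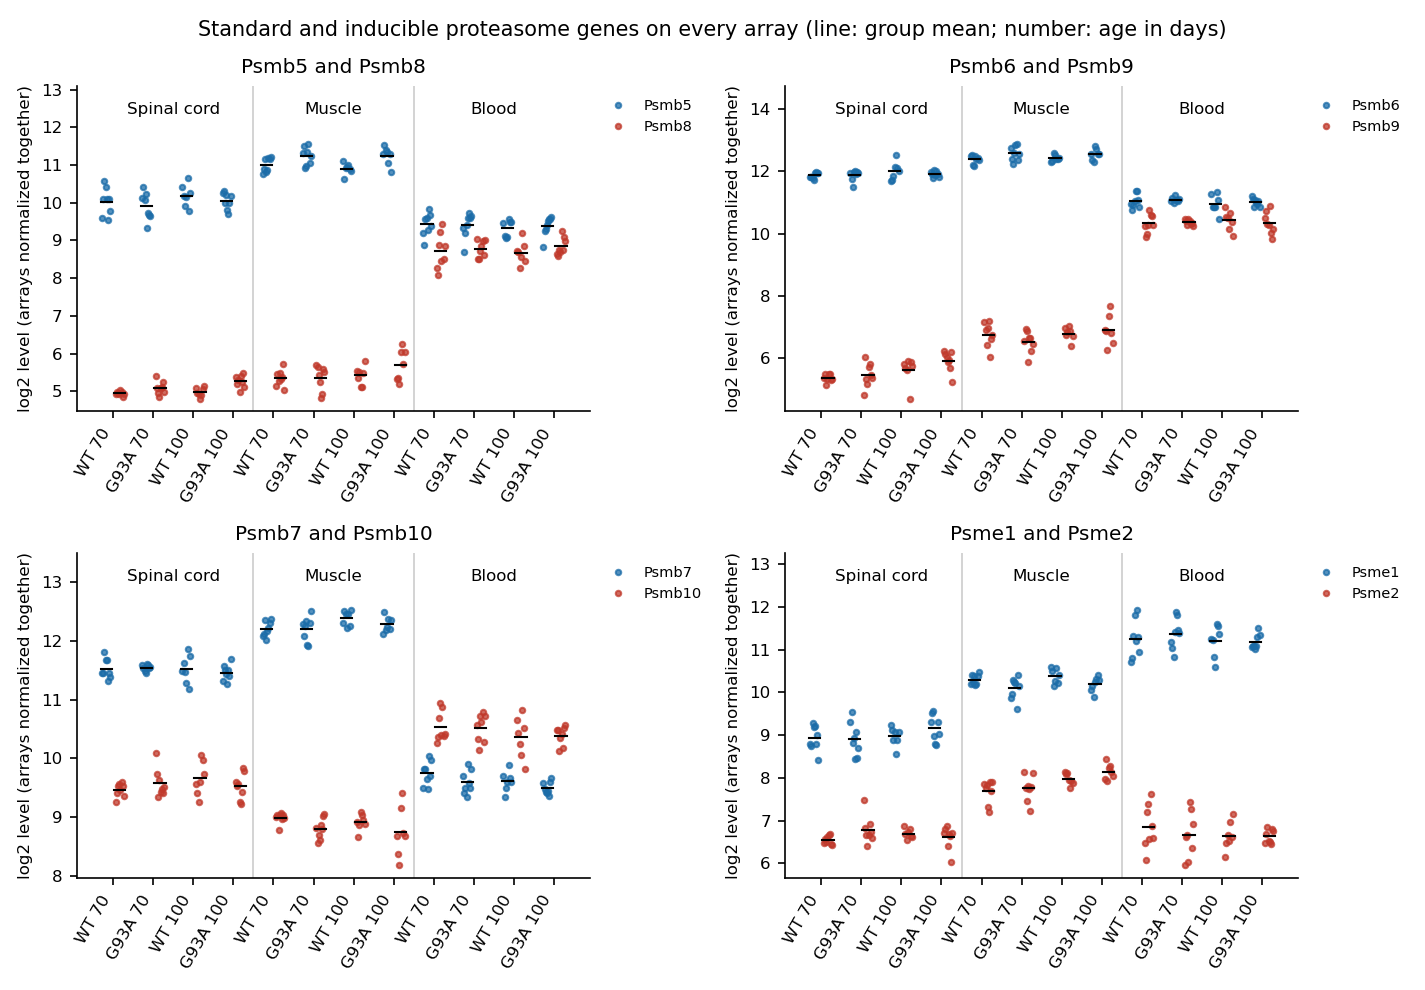
Each point is 1 array and each line a group mean; the vertical axis is the log2 level after all arrays were normalized together, and the horizontal axis holds the 12 groups by tissue, genotype (WT, wild type; G93A, G93A-SOD1) and age in days. Blood shows Psmb8 from 8.07 up and Psmb5 below its muscle level, with little difference between genotypes.

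The promoters of these genes are shown because the standard and the immunoproteasome genes differed in opposite directions between blood and the other tissues. Between muscle and spinal cord they did not: 6 of 7 beta ring genes were higher in muscle, with 2 of 3 immunoproteasome genes higher and 1 lower. Of all genes 39.9% were called higher there. RefSeq sequences of assembly GRCm38.p6 were matched by symbol for 39 of the 45 members, each from 250 bases before the gene's start to 50 bases after it. They are printed 5' to 3' on the gene's own strand, with capitals marking the matches found. The Psmb5 window is chr14:54617946-54618245 (minus strand), that of Psmb6 chr11:70525107-70525406 (plus strand), that of Psmb8 chr17:34197945-34198244 (plus strand) and that of Psmb9 chr17:34187281-34187580 (minus strand).
Psmb5: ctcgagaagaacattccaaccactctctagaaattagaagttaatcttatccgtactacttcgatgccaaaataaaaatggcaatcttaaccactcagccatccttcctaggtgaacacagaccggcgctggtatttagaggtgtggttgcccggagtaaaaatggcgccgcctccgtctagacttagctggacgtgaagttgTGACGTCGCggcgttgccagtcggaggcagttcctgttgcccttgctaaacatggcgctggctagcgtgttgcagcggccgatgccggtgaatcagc
Psmb6: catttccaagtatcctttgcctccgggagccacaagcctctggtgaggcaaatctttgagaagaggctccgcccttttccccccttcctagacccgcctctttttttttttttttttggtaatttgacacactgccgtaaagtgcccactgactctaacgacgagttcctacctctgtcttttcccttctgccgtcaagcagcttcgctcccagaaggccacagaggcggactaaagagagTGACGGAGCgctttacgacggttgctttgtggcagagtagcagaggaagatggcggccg
Psmb8: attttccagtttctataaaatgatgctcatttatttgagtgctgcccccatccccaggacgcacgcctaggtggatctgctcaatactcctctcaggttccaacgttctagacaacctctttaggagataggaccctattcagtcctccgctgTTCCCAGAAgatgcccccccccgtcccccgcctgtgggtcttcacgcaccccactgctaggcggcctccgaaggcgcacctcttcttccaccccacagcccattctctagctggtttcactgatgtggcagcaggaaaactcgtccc
Psmb9: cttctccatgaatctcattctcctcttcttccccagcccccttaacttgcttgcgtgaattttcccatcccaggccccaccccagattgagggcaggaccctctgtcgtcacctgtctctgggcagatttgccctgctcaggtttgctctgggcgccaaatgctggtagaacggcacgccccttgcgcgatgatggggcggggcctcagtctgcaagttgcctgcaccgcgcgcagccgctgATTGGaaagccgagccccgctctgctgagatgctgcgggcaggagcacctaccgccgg
Short motifs of 4 kinds were searched on both strands: the core of the antioxidant response element, TGACNNNGC, which the proteasome gene regulators Nfe2l1 and Nfe2l2 bind; the core of the interferon response element; the gamma interferon activated site, TTCNNNGAA; and the CCAAT box, CCAAT. Psmb5 and Psmb6 each held 1 antioxidant response core, beginning 47 and 9 bases before the start. Psmb8 held 1 gamma interferon activated site, beginning 97 bases before the start, and Psmb9 held 1 CCAAT box, beginning 8 bases before it. Over all members with a promoter, the antioxidant core matched 6 genes (Psmb5, Psmb6, Psmc6, Psmd9, Psmd12 and Psme4), or 14.3% of their promoters, against 12.4% of 32851 promoters. The other shares were 11.9% against 3.44% for the interferon core, 7.14% against 8.3% for the gamma interferon site and 33.3% against 37.4% for the CCAAT box. The interferon core matched Psmb3, Psmd4, Psmd9, Psme1 and Psmg4, and not Psmb8, Psmb9, Psmb10 or Psmb11. A match is only a description of the letters. In the RefSeq order on chromosome 17, Tap1 and Tap2, which carry peptides into the endoplasmic reticulum for class I presentation, flank Psmb8, and Tap1 also follows Psmb9.

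The difference between blood and muscle extended over the core and the cap. Of 44 members, 8 were higher and 31 lower in wild type blood than in muscle, that is 39 called, while 73.6% of all genes were called and 36.7% were called higher. Their median log2 difference was -0.82, against 0.02 over all genes. All 14 core subunits were below 0 and 12 of them passed the test. The structural subunit Psmb1 was 5.62-fold lower (8.68 ± 0.56 in blood and 11.16 ± 0.20 in muscle, SD, n = 15 each). Of the 16 cap subunits, 14 were lower and 1, Psmd4, was higher. Psmc2, Psmc6, Psmd2, Psmd6, Psmd11 and Psmd12 of the cap failed the detection filter in blood and were tested through other tissues. For them, and for Psmb11 and Psmd9, which also failed in blood, a lower level in blood was the only likely call. These counts are thus in part set by the filter. Psma5 and Psma6 of the core passed in no tissue taken alone.

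Psmd7, a partner of the deubiquitinase Psmd14 in the cap lid, had the largest decrease among members. Its levels were 8.20 ± 0.30 in blood and 11.26 ± 0.21 in muscle (SD, n = 15 each), an 8.33-fold difference (adjusted p = 2.11e-49). The base subunit Psmd2 was detected on 0 of 15 blood and 15 of 15 muscle arrays, so muscle was at least 2.45-fold higher. By the same bound the ATPase Psmc2 was at least 1.26-fold higher in muscle, detected on 14 of 15 arrays there and on none in blood. Psmd6, a lid subunit, was also at least 1.26-fold higher, with 10 of 15 arrays. Psmd4, the ubiquitin receptor Rpn10, ran against the rest of the cap. It was 12.70 ± 0.24 in blood, 12.05 ± 0.13 in muscle and 11.59 ± 0.16 in spinal cord (SD, n = 15 each), 1.58-fold above muscle and 2.16-fold above spinal cord (adjusted p = 2.62e-13 and 1e-24).

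Against spinal cord, 9 members were higher and 23 lower in blood, that is 32 of 44 with 82.9% of all genes called and 41.4% called higher. The core had 10 lower and 0 higher of 14, and the cap 12 lower and 1 higher of 16. The same limit holds here for the members that failed the filter in blood. Muscle exceeded spinal cord for most members: 30 were higher and 6 lower, 36 of 44, with 74.2% of all genes called, 39.9% called higher and a median log2 difference of 0.46 against 0.09 over all genes. Under median centring this split was 20 higher and 8 lower. In the core, 9 were higher and 1, the alpha subunit Psma2, was lower. In the cap, 13 were higher and the ATPase Psmc5 was lower by 1.54-fold (adjusted p = 5.37e-14). Psmb11, Psmc6 and Psmd11 passed the filter in muscle but not in spinal cord, which limits these counts too. Fewer cells of a type and less RNA per cell cannot be told apart in these bulk samples.

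**Figure D2:**
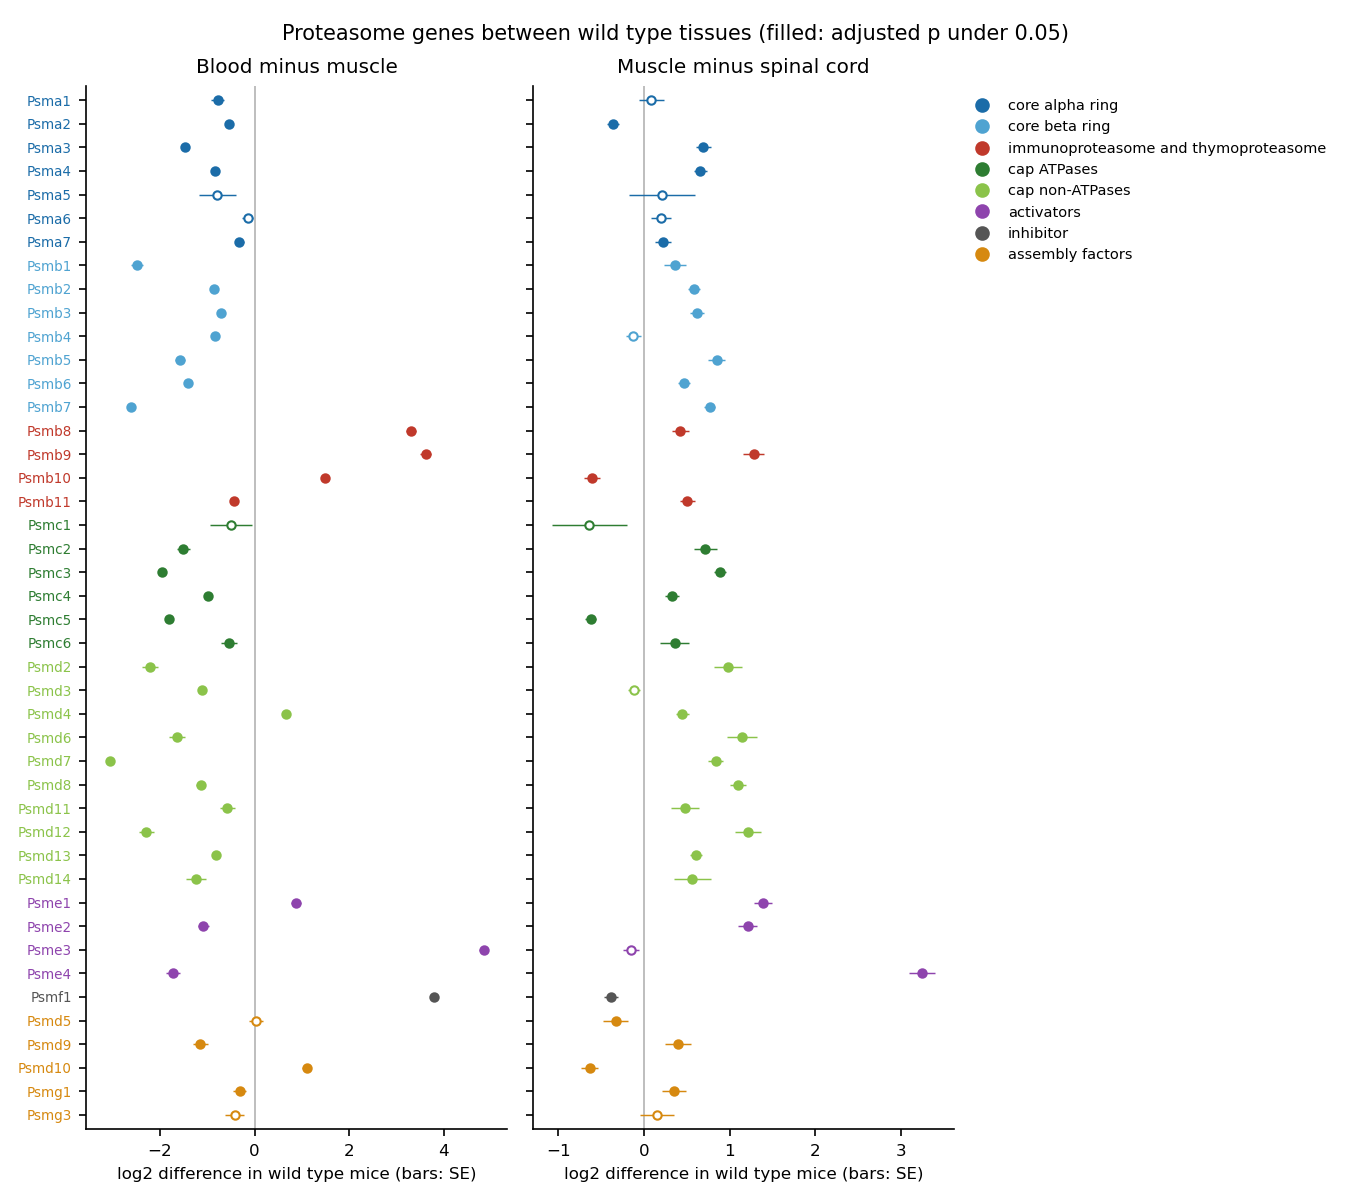
Each row is a gene, coloured by role; the horizontal axis is the log2 difference between wild type tissues, with bars for the SE and filled points for an adjusted p under 0.05. Core and cap genes other than Psmd4 sit left of 0 in blood minus muscle, down to -3.06 for Psmd7, while Psmb8, Psmb9, Psmb10, Psme3 and Psmf1 sit right of it, up to 4.85 for Psme3.

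Activators, which open the core without the cap, each had a tissue pattern of their own. Psme3 encodes PA28 gamma, a nuclear activator. It ranged from 13.89 to 14.41 in wild type blood, from 8.85 to 9.80 in muscle and from 8.92 to 10.27 in spinal cord. Blood was far above both, 28.8-fold above muscle and 25.9-fold above spinal cord (adjusted p = 5.58e-64 and 3.92e-63). Psmf1, the inhibitor PI31, did likewise. It ranged from 11.69 to 12.91 in blood, from 8.33 to 9.01 in muscle and from 8.81 to 9.30 in spinal cord, a difference of 13.9-fold and 10.6-fold (adjusted p = 2.08e-59 and 6.03e-56).

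Psme1 and Psme2 encode the alpha and beta subunits of PA28, which act as 1 ring and are both known to be induced by interferon gamma, yet they differed in direction. Psme1 was 11.23 ± 0.40 in blood, 10.34 ± 0.15 in muscle and 8.96 ± 0.26 in spinal cord (SD, n = 15 each). Blood was 1.85-fold above muscle (adjusted p = 5.29e-12), although under median centring the adjusted p was 0.395, and 4.83-fold above spinal cord (adjusted p = 8.56e-35). Psme2 was 6.76 ± 0.44 in blood, 7.83 ± 0.26 in muscle and 6.62 ± 0.13 in spinal cord (SD, n = 15 each). Muscle was 2.12-fold above blood (adjusted p = 8e-15), while blood and spinal cord gave a log2 difference of 0.13 (SE 0.11, adjusted p = 0.294). Under median centring the latter became -1.07 and passed as lower in blood (adjusted p = 5.74e-08 in limma), with the same shift of all genes to -0.59.

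Psme4, the activator PA200, was highest in muscle. It was 10.21 ± 0.18 in wild type muscle, 8.47 ± 0.57 in blood and 6.97 ± 0.50 in spinal cord (SD, n = 15 each). Muscle was 9.52-fold above spinal cord and 3.32-fold above blood (adjusted p = 1.03e-35 and 7.93e-19). Blood was also 2.87-fold above spinal cord (adjusted p = 4.02e-16), a difference that did not pass under median centring (adjusted p = 0.436). Of the assembly factors, Psmd10, gankyrin, was 2.14-fold higher in blood than in muscle (adjusted p = 6.52e-18). Psmd9 was lower in blood, where it failed the detection filter. Against spinal cord Psmd10 was 1.38-fold higher in blood. Under median centring its log2 difference was -0.84 and passed as lower in blood (adjusted p = 0.000229 in limma). That setting moved the median of all genes to -0.59. Psmb11, the thymoproteasome subunit of thymic cortical cells, was detected on 5 of 15 muscle arrays and on none of the wild type blood and spinal cord arrays.

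Genotype was compared next, within each tissue, in 1 limma fit of its 4 groups after quantile normalization of that tissue alone, and levels below are on that scale. In muscle at 100 days 3 members rose in G93A-SOD1 and 0 fell, of 42 tested. Over all 9089 genes 10.8% were called, and 6.05% were called higher, so the members' share was close to the background. The 3 genes were Psmd8, Psmc4 and Psmb5.

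Psmd8, a cap lid subunit, had lowest, median and highest levels of 11.72, 11.87 and 12.07 in wild type muscle at 100 days and 11.69, 12.63 and 12.92 in G93A-SOD1. The G93A-SOD1 arrays spread widely, with 5 of 7 above the highest wild type array. The log2 difference was 0.52 (SE 0.17, adjusted p = 0.0407). Psmc4, a cap ATPase, was 10.88, 11.15 and 11.34 in wild type and 11.26, 11.49 and 11.73 in G93A-SOD1, with 6 of 7 above the highest wild type array. The log2 difference was 0.34 (SE 0.11, adjusted p = 0.0448). Psmb5 was 10.66, 10.98 and 11.18 in wild type and 10.86, 11.38 and 11.62 in G93A-SOD1, with 5 of 7 above the highest wild type array. The log2 difference was 0.37 (SE 0.12, adjusted p = 0.0496).

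All 3 adjusted p-values lay close to 0.05. Psmb5 did not pass with the replicate block (adjusted p = 0.0554), with only the groups compared (0.0549), with every probe kept (0.0529) or with all tissues normalized together (0.0525), where Psmc4 did not pass either (0.0511). No member was called under median centring, where adjusted p was 0.229, 0.255 and 0.244 in the same order, nor without a detection filter, where it was 0.0809, 0.0692 and 0.0814.

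**Figure D3:**
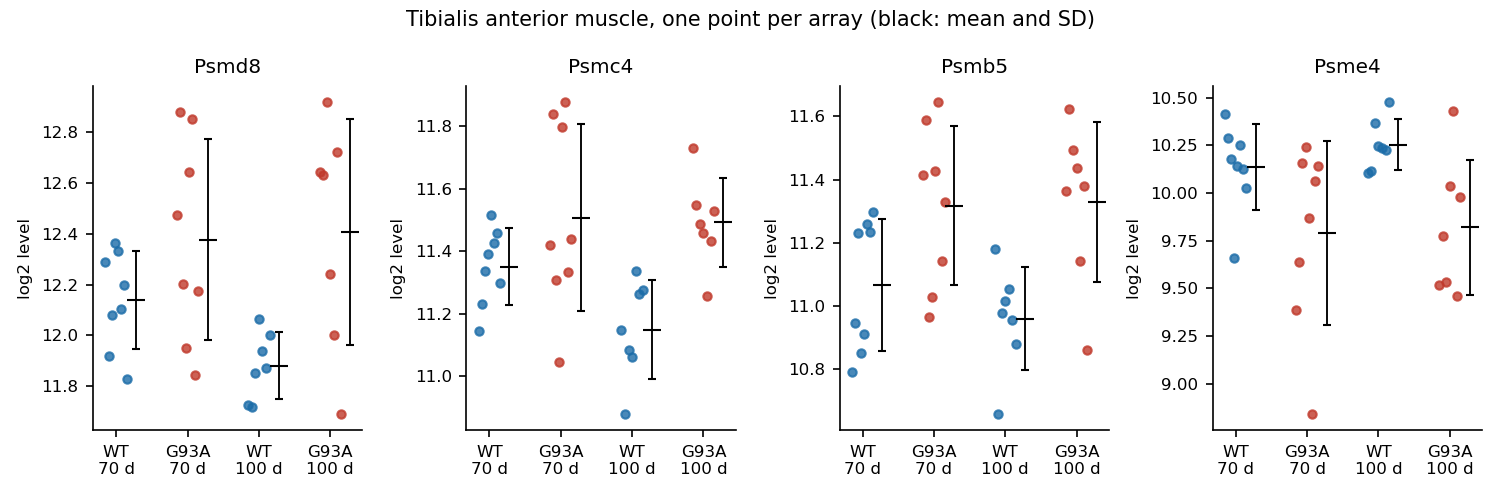
Points are arrays of tibialis anterior muscle, with the log2 level on the vertical axis, the 4 groups on the horizontal axis and the mean and SD in black. Psmd8, Psmc4 and Psmb5 are higher in G93A-SOD1 at 100 days, Psme4 differs by -0.43 without passing the test, and the groups overlap for each gene.

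By role, most differences of muscle at 100 days were above 0 in the core and the cap. Above 0 were 9 of 12 core subunits (median log2 difference 0.15), 13 of 16 cap subunits (0.11), 6 of 6 cap ATPases (0.24) and 3 of 4 immunoproteasome and thymoproteasome genes (0.07). For all 42 members 31 were above 0 with a median of 0.13, against 48.5% of all genes and a median of -0.01. Median centring moved the median of all genes to 0.18 and that of the members to 0.33. Unadjusted p was under 0.05 for 9 of 42 members, against 28% of all genes. The cap ATPase Psmc5 (0.25, SE 0.10, adjusted p = 0.0886) and the core subunits Psmb4 (0.27, SE 0.11, adjusted p = 0.112) and Psma2 (0.22, SE 0.09, adjusted p = 0.122) had the next smallest p among differences above 0, and Psme4 (-0.43, adjusted p = 0.0953) lay between Psmc5 and Psmb4 with a difference below 0.

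The mean of the 12 core genes on an array, after each gene's wild type mean in muscle was subtracted, ran from 0.00 to 0.09 (median 0.05) in wild type and from 0.06 to 0.33 (median 0.18) in G93A-SOD1 at 100 days. At 70 days it ran from -0.16 to 0.10 (median -0.05) in wild type and from 0.05 to 0.22 (median 0.12) in G93A-SOD1. The ranges of the genotypes overlapped at their ends at both ages. The mean of the 16 cap genes overlapped more, with ranges from -0.09 to 0.18 and from -0.09 to 0.64 at 100 days.

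Of the proteolytic genes that were not called in muscle at 100 days, Psmb6 differed by 0.12 (SE 0.10, adjusted p = 0.437) and Psmb7 by -0.11 (SE 0.09, adjusted p = 0.487). Psmb8 differed by 0.24 (SE 0.13, adjusted p = 0.235), Psmb9 by 0.13 (SE 0.20, adjusted p = 0.706) and Psmb10 by -0.06 (SE 0.10, adjusted p = 0.713). Psme1 differed by -0.21 (SE 0.11, adjusted p = 0.241) and Psme2 by 0.18 (SE 0.14, adjusted p = 0.435). Psme4, the activator highest in muscle, was 10.11, 10.23 and 10.48 in wild type and 9.46, 9.77 and 10.43 in G93A-SOD1. Its SE was 0.17 and its call depended on the setting, since with array weights it passed (-0.45, adjusted p = 0.0498); at the main setting it did not, with 6 of 7 G93A-SOD1 arrays below the lowest wild type array.

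Markers of other cells were measured in the same muscles, without a test of their own. Of 16 listed microglia and macrophage markers 10 were measured. Their summed level ran from 638 to 1326 in wild type and from 941 to 2377 in G93A-SOD1 at 100 days, with Itgam and Ptprc detected on 0 arrays. For 3 measured neutrophil markers the sum ran from 32 to 202 (median 96) in wild type and from 39 to 1557 (median 388) in G93A-SOD1 at 100 days, and from 37 to 257 (median 62) and from 91 to 763 (median 409) at 70 days, with Csf3r, Cxcr2 and Ngp detected on 0 arrays. The mean of 10 fast fibre markers relative to wild type ran from -0.02 to 0.17 in wild type and from -0.35 to 0.08 in G93A-SOD1 at 100 days. The sum of 5 oligodendrocyte markers had a median of 678 in wild type and 340 in G93A-SOD1 at that age. The part of these cells in the values of proteasome genes was not tested.

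At 70 days no member was called in muscle, where 0.011% of all genes were, 24 of 42 differences were above 0, against 46.6% of all genes, and 9 of 42 had an unadjusted p under 0.05, against 15.4% of all genes. The smallest p belonged to Psmb11, which was detected on 4 of 8 wild type and 1 of 8 G93A-SOD1 arrays. It met the detection filter with 7 of 30 muscle arrays, the minimum, and so depended on the wild type arrays of this age. Its log2 difference of -0.29 is therefore a description, and no test of it is given. Next was Psma2, an alpha ring subunit, at 12.27, 12.56 and 12.64 in wild type and 12.59, 12.77 and 12.95 in G93A-SOD1. Only the lowest G93A-SOD1 arrays reached the wild type range, and the log2 difference was 0.24 (SE 0.09, adjusted p = 0.198). In the core 10 of 12 differences were above 0, with a median of 0.19, and in the cap 9 of 16, with a median of 0.09. Psmb5 differed by 0.25 (SE 0.11, adjusted p = 0.285), Psmb6 by 0.19 (SE 0.09, adjusted p = 0.312) and Psmb7 by -0.01 (SE 0.09, adjusted p = 0.98). The immunoproteasome genes differed by 0.01 for Psmb8, -0.24 for Psmb9 and -0.16 for Psmb10, with adjusted p of 0.981, 0.566 and 0.391. Psme1 differed by -0.23 (adjusted p = 0.311) and Psme2 by 0.08 (adjusted p = 0.825). The genotype effect did not pass as different between ages for any of the 42 members; 0 had an unadjusted p under 0.05 in limma, and 2.53% of all genes did. The same test called 0 members in spinal cord and blood, where 2 of 39 and 0 of 34 had an unadjusted p under 0.05, against 4.04% and 1.44% of all genes.

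**Figure D4:**
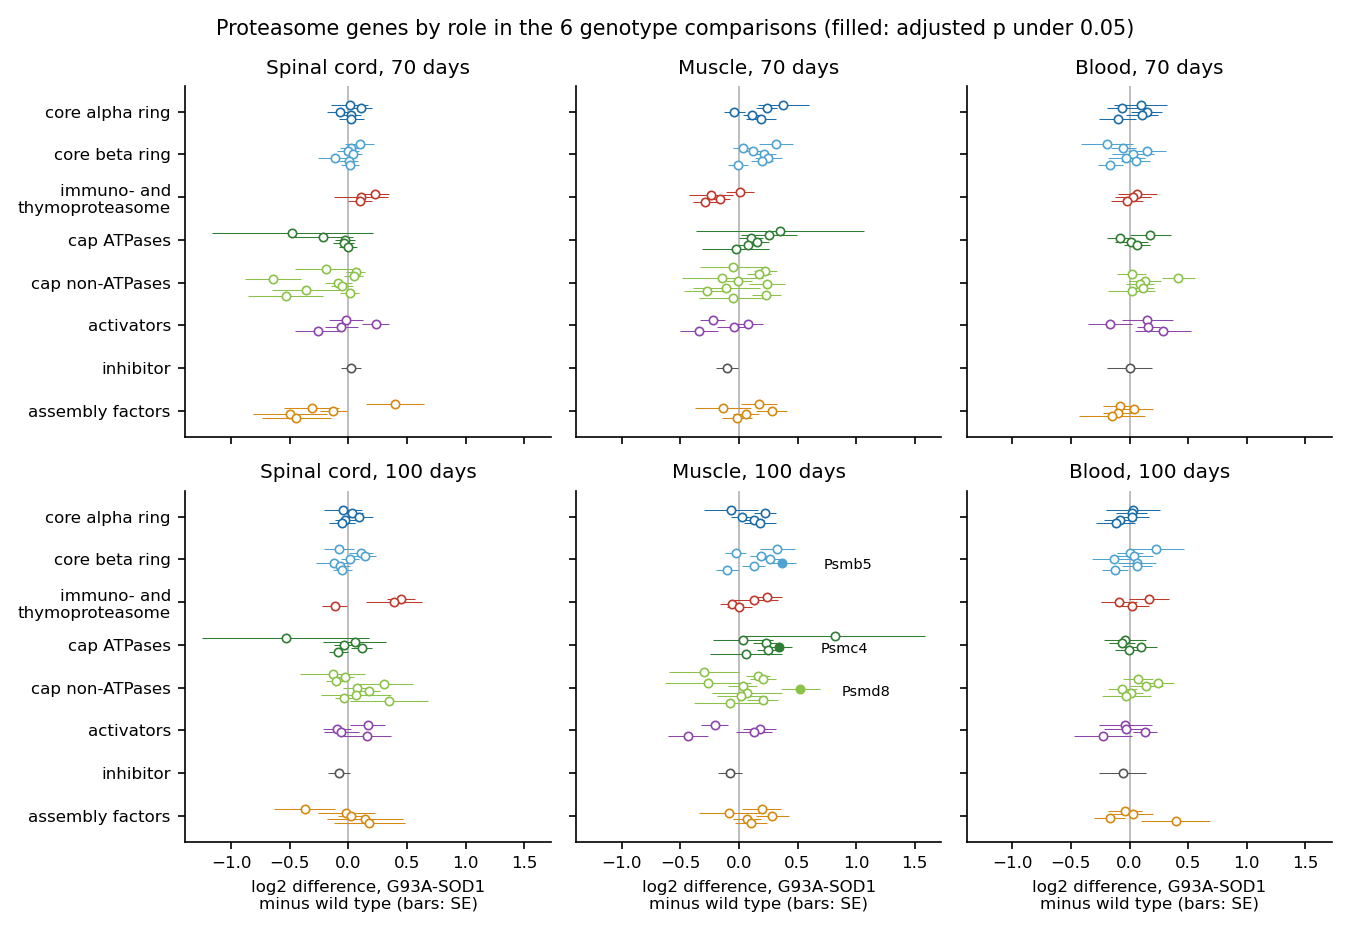
Each point is a gene and each row a role; the horizontal axis is the log2 difference between G93A-SOD1 and wild type with bars for the SE, and points are filled for an adjusted p under 0.05. The only filled points are Psmb5, Psmc4 and Psmd8 in muscle at 100 days; in spinal cord at 100 days Psmb8 and Psmb9 lie near 0.4, and the core lies within 0.15 of 0.

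In spinal cord no member was called at either age, where 0.0278% of all genes were called at 70 days and 0.0185% at 100 days. Differences above 0 numbered 18 of 39 at 70 days and 19 of 39 at 100 days, against 44.5% and 54.8% of all genes. At 100 days Psmb8 had the smallest p of the 39 members. Its levels were 4.93, 5.15 and 5.48 in wild type, detected on 2 of 7 arrays, and 5.21, 5.69 and 6.00 in G93A-SOD1, detected on 7 of 8. Of the G93A-SOD1 arrays 6 of 8 lay above the highest wild type array, and the ranges overlapped. The log2 difference was 0.45 (SE 0.12, unadjusted p = 0.000624, adjusted p = 0.293 in limma), and 0.48 (adjusted p = 0.141) without the 5 doubted spinal cord arrays. At 70 days it was 0.23 (SE 0.11, adjusted p = 0.74), with detection on 3 of 8 and 4 of 8 arrays.

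Psmb9 had a difference of like size that, like that of Psmb8, did not pass the test. At 100 days its levels were 4.76, 6.33 and 6.53 in wild type and 5.59, 6.64 and 6.90 in G93A-SOD1, a log2 difference of 0.39 (SE 0.24, adjusted p = 1). The lowest wild type value was from replicate 5, 1 of the arrays with few detected probes. Psmb10 differed by -0.12 (SE 0.11, adjusted p = 1) and Psme1 and Psme2 by 0.16 and -0.10 (adjusted p = 1 for both).

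Microglia and macrophage markers were measured in the same arrays. Of 16 listed markers 12 were measured, and their summed level at 100 days ran from 3594 to 4859 (median 3986) in wild type and from 3966 to 10671 (median 6332) in G93A-SOD1. Itgam and Ptprc were detected on 0 arrays. At 70 days the sums ran from 3346 to 3934 in wild type and from 3563 to 9955 in G93A-SOD1. Of 10 listed T and B cell markers 1 was measured; its level at 100 days ran from 7 to 32 in wild type and from 10 to 133 in G93A-SOD1, and Cd3e, Cd3g and Cd4 were detected on 0 spinal cord arrays. The part of these cells in the levels of Psmb8 and Psmb9 was not tested.

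**Figure D5:**
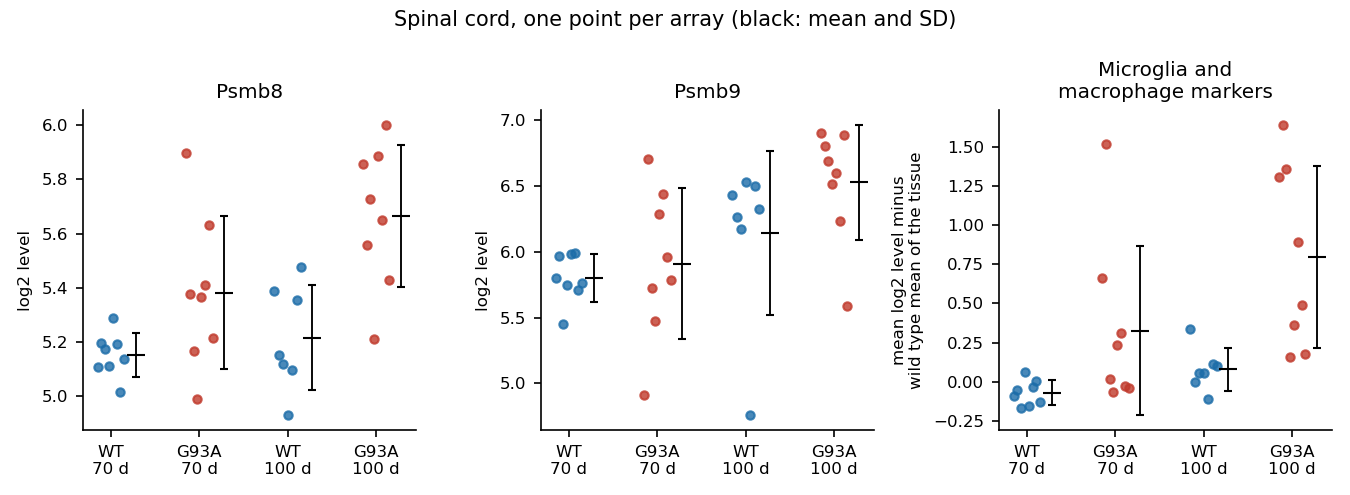
Points are spinal cord arrays, with the log2 level of Psmb8 and Psmb9 and, at right, the mean of microglia and macrophage markers relative to wild type; black shows the mean and SD. G93A-SOD1 arrays at 100 days reach 6.00 for Psmb8 and a marker mean of 1.64, and both spread more than in wild type.

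In spinal cord the differences of the core were small, while those of the cap ran wider. At 100 days the 12 core differences ran from -0.13 to 0.14 (median -0.04) and the 14 cap differences from -0.53 to 0.35 (median 0.01). Psmb5, Psmb6 and Psmb7 differed by -0.13, -0.07 and -0.05 with SE of 0.15, 0.08 and 0.08. At 70 days they differed by -0.11, 0.00 and 0.02, and the core ran from -0.11 to 0.11. The smallest p at 70 days was that of the lid subunit Psmd6, a dim probe. It was 4.99, 5.89 and 6.13 in wild type and 4.53, 4.97 and 5.78 in G93A-SOD1, detected on 6 of 8 and 2 of 8 arrays, with a log2 difference of -0.64 (SE 0.24, adjusted p = 0.74). Of 39 members 1 had an unadjusted p under 0.05 at each age, against 5.01% and 3.24% of all genes.

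Blood gave no called member at 70 or 100 days, where 0.0714% and 0.0595% of all genes were called in limma. Unadjusted p was under 0.05 for 1 of 34 members at 70 days and 0 at 100 days, against 6.26% and 2.32% of all genes. Differences above 0 numbered 21 of 34 and 18 of 34, against 62.1% and 54.2% of all genes. The member was Psmd4, the cap gene that was also high in wild type blood. Its levels at 70 days were 11.91, 12.43 and 13.21 in wild type and 12.71, 12.82 and 13.22 in G93A-SOD1. The highest arrays of both groups met, and the log2 difference was 0.42 (SE 0.14, adjusted p = 0.687). At 100 days it was 0.24 (SE 0.14, adjusted p = 1).

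The genes that set blood apart from other tissues were near 0 between genotypes. At 100 days Psmb8 differed by 0.16 (SE 0.17), Psmb9 by -0.09 (SE 0.16), Psmb10 by 0.02 (SE 0.14), Psme3 by 0.13 (SE 0.10) and Psmf1 by -0.06 (SE 0.20), with adjusted p of 1 for each. At 70 days these values were 0.07, 0.03, -0.02, 0.16 and 0.00. Psmb5, Psmb6 and Psmb7 differed by -0.03, 0.05 and -0.17 at 70 days and by 0.06, 0.06 and -0.12 at 100 days. Psme1 and Psme2 differed by 0.15 and -0.17 at 70 days and by -0.04 and -0.03 at 100 days.

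Age alone was compared within each genotype, and no member was called in any tissue, nor any other gene. In wild type the members with an unadjusted p under 0.05 in limma were 1 of 39 in spinal cord, 5 of 42 in muscle and 1 of 34 in blood, against 2.68%, 11.8% and 9.71% of all genes. The smallest p in wild type muscle was that of the alpha subunit Psma1, 0.76 higher at 100 days on the log2 scale (SE 0.22, adjusted p = 0.178). In G93A-SOD1 the counts were 3 of 39, 4 of 42 and 1 of 34, against 7.07%, 7.38% and 5.89%. The smallest p was that of Psme2 in muscle (0.43, SE 0.14, adjusted p = 0.494), Psmb9 in spinal cord (0.62, SE 0.23, adjusted p = 0.677) and the ATPase Psmc1 in blood (-0.44, SE 0.17, adjusted p = 0.711).

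Genes that work with the proteasome were counted as lists. Among 10 partner genes measured in muscle, 2 rose at 100 days: Pomp, the chaperone that completes the core, by 0.37 (SE 0.11, adjusted p = 0.0353), and Zfand2a, an arsenite-inducible factor that binds the cap, by 0.37 (SE 0.11, adjusted p = 0.0362). Their median was 0.22, against -0.01 over all genes, of which 10.8% were called and 6.05% called higher. Of 7 class I antigen processing genes 1 rose: Pdia3, which folds class I molecules (0.47, SE 0.15, adjusted p = 0.0431). Of 4 regulators of proteasome genes and 8 interferon response genes 0 passed; Nfe2l1, which induces proteasome genes when proteolysis fails, differed by -0.04 (SE 0.09, adjusted p = 0.815).

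In spinal cord none of these lists had a called gene at either age. B2m, the light chain of class I molecules, differed by 0.48 at 70 days (SE 0.15, unadjusted p = 0.00395, adjusted p = 0.74 in limma). Class I genes had 4 of 7 with an unadjusted p under 0.05 then, and 0 of 7 at 100 days, against 5.01% and 3.24% of all genes. In blood 1 of 9 interferon response genes passed at 70 days: Stat2, which carries the signal of type I interferon, differed by -1.19 on the log2 scale (SE 0.19, adjusted p = 0.00172). At 100 days Stat2 differed by -0.85 in blood (SE 0.20, adjusted p = 0.153 in limma). In spinal cord Stat2 differed by -0.64 at 70 days (SE 0.13, unadjusted p = 2.77e-05, adjusted p = 0.0748 in limma), a smaller p than that of B2m. Its difference there at 100 days was -0.26 (SE 0.13). Between wild type tissues, 7 of 8 class I genes and 9 of 10 interferon response genes were higher in blood than in muscle. That was the direction of Psmb8 and Psmb9, and 36.7% of all genes were called higher. Tap1 and Oasl2 were detected on 0 muscle and 0 spinal cord arrays, and Stat2 on 0 muscle arrays. For these genes a higher level in blood was the only likely call, so the counts are in part set by the filter. Of the proteasome partners 8 of 12 were lower, the direction of the core, where 4618 of 12530 genes were called lower.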

How the data were processed

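The deposited table held, per the file headers, 1 signal intensity and 1 detection p-value for each probe and array; the signals were not normalized, and how the detection p-value was made was not given in the sources used here. In addition the authors deposited log2 values of these arrays as a series matrix, which served as an alternative and whose normalization is not stated in the labels or headers. Labelled cRNA came from an Ambion MessageAmp kit, per the labels' protocols. The platform annotation gave 1 symbol for 20984 of 24613 probes, several for 1 and no symbol for 3628; 7 lines without a probe ID, 0.00539% of the signal, were left out.

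Signals were background corrected with normexp from the detection p-values, given an offset of 16, quantile normalized within each tissue (over all arrays for tissue comparisons) and put on the log2 scale with neqc of limma 3.58.1 in R 4.3.3. Probes detected at p under 0.05 on at least 7 arrays were kept, with the brightest for each gene. lmFit and eBayes fitted the groups together, with Benjamini-Hochberg adjustment over all genes at 0.05. Groups came from the sample labels. Alternatives changed background correction, normalization, filter, probe choice, array weights, the groups fitted, a replicate block and the arrays left out. Every called member was to be named, up to 6 in each direction, or else the member of smallest p, with Psmb5 to Psmb10, Psme1 and Psme2 in every tissue, and up to 3 called genes of related lists. The members and lists were chosen with earlier results of these data known. The calculation was tested on simulated data.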

Additional observations from a re-analysis of the deposited data

Results flagged for a closer look

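In 6 of 204 groups tested, or 2.94%, the highest or lowest array lay far from the rest of its group by Dixon's criterion, where chance gives about 5%. Psmb9 in spinal cord of wild type replicate 5 at 100 days was 4.76, against a group median of 6.33; this was an array with few detected probes. Psmc4 in blood of G93A-SOD1 replicate 7 at 70 days was 8.999, against a median of 9.51. Psme3 in blood of wild type replicate 6 at 70 days, the blood array of highest background, was 13.94, against 14.4. The mean of the cap genes, relative to wild type, was -0.24 in blood of wild type replicate 2 at 70 days, against a median of 0.08. It was -0.77 in spinal cord of G93A-SOD1 replicate 1 at 70 days, the array with the fewest detected probes, against a median of -0.04. The mean of the core genes was -0.12 in blood of G93A-SOD1 replicate 5 at 100 days, against a median of -0.02.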

How the results depend on the processing

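Alternative counts of members called equalled the main count or stayed within 1.5 times of it in 177 cases and left it in 5. Within tissues the main count was 0 in every comparison but the genotypes of muscle at 100 days. For those comparisons an unchanged count was 0 again, which says little about stability. In muscle at 100 days, 3 became 1 with all tissues normalized together, 7 with array weights (6 higher and Psme4 lower), 0 with median centring and 0 with no detection filter. Age in wild type muscle gave 1 member with array weights. Of 953 alternative values of single members 896 kept direction and call, 16 lost the call, 3 gained it and 38 turned direction; the cause was not tested.

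Median centring moves all genes together: their median difference at 100 days became 0.25 for spinal cord, 0.18 for muscle and 0.12 for blood, and at 70 days -0.34, 0.06 and 0.28 in this order; for wild type blood against spinal cord it became -0.59. The turns under it are to be read against these shifts. It turned, in blood at 100 days, Psmb7 to 0.070, Psmb9 to 0.089, Psme1 to 0.12 and Psme2 to 0.035, and at 70 days Psmb10 to 0.34, Psmb5 to 0.31 and Psmb7 to 0.19. In muscle it turned Psmb10 to 0.19, Psmb7 to 0.053 and Psme1 to 0.0074 at 100 days and Psmb7 to 0.036 at 70 days. In spinal cord it turned Psmb10 to 0.21, Psmb5 to 0.20, Psmb6 to 0.21, Psmb7 to 0.24 and Psme2 to 0.17 at 100 days, and Psmb10 to -0.40, Psmb6 to -0.52, Psmb7 to -0.50 and Psme2 to -0.17 at 70 days. Between wild type blood and spinal cord it turned Psmb10 to -0.23, Psmd10 to -0.84 and Psme2 to -1.07. Of these, Psmd10 and Psme2 passed the test as lower in blood. Array weights turned Psmb10 to -0.085 and Psme2 to 0.067 in blood at 100 days, Psmb9 to -0.025 in blood and Psmb7 to 0.033 in muscle at 70 days. Series matrix values turned Psme2 to 0.062 at 100 days, and Psmb8 to -0.091 and Psmb9 to -0.12 at 70 days, in spinal cord. No background correction turned Psmb8 to -0.0015 in muscle at 70 days. Without the array of highest background, Psmb10 and Psmb5 in blood at 70 days were 0.031 and 0.035. In spinal cord, Psmb6 was 0.0059 at 100 days without the 5 doubted arrays, and at 70 days -0.0069 without these and -0.0059 without the 2 dim ones. Psme1 at 70 days was 0.076 without the 3 arrays with muscle transcripts and 0.024 without all 5.

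With the replicate block 2 members were called in muscle at 100 days, Psmb5 being lost, and 0 in every other comparison within a tissue. Same-numbered arrays of the genotypes correlated from -0.308 to 0.521, and the numbers were not taken as pairs in the main fit. At 70 days the own number gave the best match for 4 of 8 in spinal cord, 1 of 8 in muscle and 1 of 8 in blood. At 100 days it did so for 0 of 7, 4 of 7 and 3 of 7 in this order. Whether the numbers mark shared mice or shared processing was not tested. Dim probes limit what can be seen: Psmb8 was detected on 5 of 15 wild type spinal cord arrays.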

Other observations

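The values here were chosen after they were seen, and they come from further probes of 2 members, which the choice of the brightest probe had left out. A dimmer probe of Psmb2, a structural beta subunit of the core, was detected in blood of one genotype far more than of the other. At 70 days its lowest, median and highest levels were 5.31, 6.35 and 7.88 in wild type and 4.56, 4.68 and 5.04 in G93A-SOD1, and at 100 days they were 4.97, 6.25 and 8.07 against 4.59, 4.71 and 5.34. It was detected on 14 of 15 wild type arrays and on 1 of 16 G93A-SOD1 arrays. It met the detection filter only through wild type, so no test of its difference is given; at 70 days wild type was at least 2.50-fold higher, as a description. The brightest Psmb2 probe differed by -0.05 (SE 0.11) and 0.00 (SE 0.11).

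A dimmer probe of Psme4, PA200, fell in G93A-SOD1 muscle at 100 days. Its levels were 6.55, 6.76 and 7.24 in wild type and 5.09, 5.79 and 6.55 in G93A-SOD1, with detection on 7 of 7 and 5 of 7 arrays. The log2 difference was -1.06 (SE 0.28, adjusted p = 0.0226 over 10658 probes in limma), against -0.43 (SE 0.17, adjusted p = 0.1) for the brightest Psme4 probe in the same fit. At 70 days the dimmer probe differed by -0.27 (adjusted p = 0.687).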
